A study of Mus musculus with 5 samples.

Results

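*F13a1*, *Scin*, *Padi2*, *Serpina3g* and *Cd200r3* are 5 abundant genes that were lower in dendritic cell cultures carrying an *Irf8* transgene than in control cultures. They were chosen from 1355 listed genes for their high normalized counts in the control samples and their lower values in the *Irf8*-OE samples, so their difference between the groups is given as a description, and calls by a test are reported only as a count that supports nothing. Each of the 1355 genes had been kept by the authors because it differed between the same samples, so the rest of the transcriptome was not analysed here.

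The 5 genes encode proteins with different functions. *F13a1* encodes the catalytic A subunit of coagulation factor XIII, a transglutaminase that cross-links fibrin. *Scin* encodes scinderin, a calcium-dependent protein of the gelsolin family that severs and caps actin filaments, and *Padi2* encodes a calcium-dependent deiminase that converts arginine in proteins to citrulline. *Serpina3g* encodes a serpin, a family of protease inhibitors, and *Cd200r3* encodes a CD200 receptor-like surface protein known from mast cells and basophils. IRF8, the transcription factor raised in these cells, is known for its part in the development of dendritic cells and monocytes.

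Bone marrow-derived dendritic cells (BMDCs) were grown from the tibias and femurs of C57BL/6 mice that the labels give as 8 weeks old. Marrow cells were cultured with 5 ng/ml GM-CSF and 200 ng/ml Flt3L, growth factors that drive dendritic cell differentiation. They were replated on day 9, and non-adherent cells were taken on days 15 to 16. All 5 samples carry the label of stimulation with the cytokine TNF-α, for which the protocol gives 20 ng/ml. The 3 *Irf8*-OE samples were *Irf8* CAG-LSL Itgax-Cre, in which a Flag-tagged *Irf8* inserted at the H11 locus behind a stop cassette is released by Cre under the promoter of *Itgax*, the CD11c gene, and the transgene is therefore switched on only in cells that have used that promoter. The 2 control samples are wild type by their labels, whereas the study's methods name *Irf8* CAG-LSL mice without Cre as controls. Nothing says whether samples of a group came from separate animals or cultures, so the SDs below may be technical.

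Normalized counts are reads scaled by a size factor for each sample, and they are not corrected for gene length. Between 646123 and 1062127 reads fell on the listed genes in each sample, and a value resting on 3 reads lay between 2.80 and 3.37 normalized counts. *Irf8* itself stood at 2835 and 2747 normalized counts in the controls and at 7141, 6519 and 6021 in *Irf8*-OE samples 1, 2 and 3. *Xist*, the RNA of the inactive X chromosome, was at most 1.12 in the controls and 10772 to 13476 in the *Irf8*-OE samples. On the Y chromosome, *Uty*, *Kdm5d*, *Ddx3y* and *Eif2s3y* ranged from 484 to 1385 in the controls, whereas no *Irf8*-OE sample had a read on any of them. The label of male mice therefore held for the controls and not for the *Irf8*-OE samples, so that sex and genotype cannot be told apart in any difference below. Of 10 markers shared by dendritic cells, among them *Itgax*, *Flt3* and *Zbtb46*, only *Fscn1* was listed. Its mean was 4096 in controls and 12502 in *Irf8*-OE, and these shared markers could check the labelled cell type no further. Markers of other cell types are given below. The mast cell gene *Cpa3* alone took 17.3% and 17.6% of the reads on listed genes in the controls. In the *Irf8*-OE samples it took 3.18% to 3.74%.

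*F13a1* (ENSMUSG00000039109, mm10, chromosome 13, 36867178 to 37050244, minus strand) had the highest count of the 5 genes. Its level was 20317 and 20372 normalized counts in control samples 1 and 2, and 3586, 3715 and 3841 in *Irf8*-OE samples 1, 2 and 3. The 2 controls were nearly equal, the 3 *Irf8*-OE samples lay close together, and the groups did not overlap. The mean was 20344 ± 38.5 (SD, n = 2) in controls and 3714 ± 127 (SD, n = 3) in *Irf8*-OE, so that *Irf8*-OE stood at 18.3% of control. The log2 fold change was -2.45 (SE 0.05), a 5.48-fold lower mean. After quantile normalization the log2 fold change of *F13a1* was -1.66, or 3.17-fold.

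*Scin* (ENSMUSG00000002565, chromosome 12, 40059769 to 40134228, minus strand) was measured at 14034 and 13697 normalized counts in the controls and at 3365, 3345 and 3412 in *Irf8*-OE samples 1, 2 and 3. The *Irf8*-OE values were the tightest among the 5 genes, and every one lay far under both controls. The group means were 13866 ± 238 (SD, n = 2) and 3374 ± 34.1 (SD, n = 3). The log2 fold change of -2.04 (SE 0.05), or 4.11-fold, was the smallest of the 5 and left *Irf8*-OE at 24.3% of control.

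*Padi2* (ENSMUSG00000028927, chromosome 4, 140906344 to 140952586, plus strand) stood at 6924 and 7038 normalized counts in the controls and at 1418, 1325 and 1464 in the *Irf8*-OE samples. The second *Irf8*-OE sample was the lowest, and the highest *Irf8*-OE sample remained well under the lower control. The means were 6981 ± 80.4 (SD, n = 2) and 1402 ± 71.0 (SD, n = 3), a log2 fold change of -2.32 (SE 0.06), or 4.98-fold.

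*Serpina3g* (ENSMUSG00000041481, chromosome 12, 104236245 to 104241939, plus strand) showed 14012 and 13661 normalized counts in the controls and 2385, 2340 and 2298 in *Irf8*-OE samples 1, 2 and 3. It therefore matched *Scin* in both controls but not in any *Irf8*-OE sample, and its groups did not overlap. The means were 13837 ± 248 (SD, n = 2) and 2341 ± 43.4 (SD, n = 3). The log2 fold change of -2.56 (SE 0.05), or 5.91-fold, was the largest of the 5 genes on this scale, with *Irf8*-OE at 16.9% of control.

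*Cd200r3* (ENSMUSG00000036172, chromosome 16, 44943678 to 44981380, plus strand) was the least abundant of the 5. It was measured at 5288 and 5319 normalized counts in the controls and at 969, 1033 and 997 in *Irf8*-OE samples 1, 2 and 3. The controls were again almost equal and the groups were far apart. The means were 5303 ± 22.2 (SD, n = 2) and 999.7 ± 31.9 (SD, n = 3), a log2 fold change of -2.41 (SE 0.06), or 5.31-fold. After quantile normalization *Cd200r3*, and no longer *Serpina3g*, had the largest change of the 5, at -2.14 against -1.99 on the log2 scale.

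**Figure D1:**
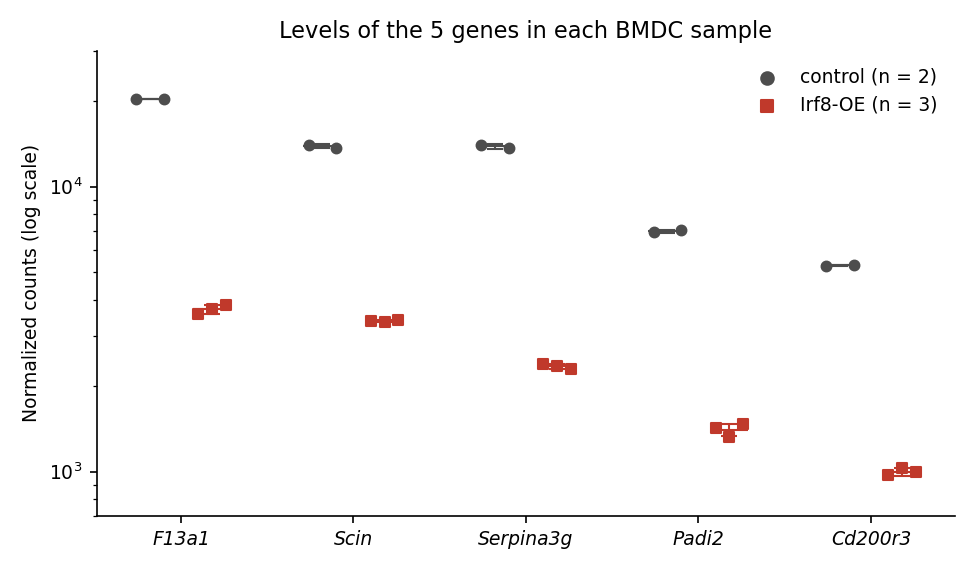
Normalized counts (log scale) of the 5 genes in the 2 control samples (circles) and the 3 *Irf8*-OE samples (squares); horizontal marks and bars give the mean and SD. For every gene both controls lie above all 3 *Irf8*-OE samples, from 20317 and 20372 against at most 3841 for *F13a1* to 5288 and 5319 against at most 1033 for *Cd200r3*.

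All 5 genes were called lower in *Irf8*-OE by limma's test (Benjamini-Hochberg adjusted p under 0.05 and a log2 fold change beyond 1), and all 5 had groups that did not overlap. Among the listed genes 41.0% were called lower, 100% had groups that did not overlap in either direction, and 41.2% had groups that did not overlap and were lower. Because the 5 genes were chosen on this contrast, nothing is read from their count. Pairing each control with each *Irf8*-OE sample gave ratios of 5.29 to 5.68 for *F13a1*, 4.01 to 4.20 for *Scin*, 4.73 to 5.31 for *Padi2*, 5.73 to 6.10 for *Serpina3g* and 5.12 to 5.49 for *Cd200r3*. The whole range of *Scin* thus lay under the ranges of the other 4 genes, and that of *Serpina3g* lay above them, while *F13a1* and *Cd200r3* overlapped each other and *Padi2*. In these bulk cultures, fewer cells that use a gene and less RNA of it per cell cannot be told apart.

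Together the 5 genes took 5.98% and 5.90% of the reads on listed genes in the controls and 1.83% to 1.85% in the *Irf8*-OE samples. Divided by gene length, the order in the controls was *Serpina3g* with 6573 normalized counts per kb, *Scin* with 4623, *F13a1* with 3019, *Padi2* with 1393 and *Cd200r3* with 886. *F13a1*, first by count, was thus number 3 per kb, its 6739 bases of exon being the longest of the 5. In *Irf8*-OE, *Scin* and *Serpina3g* were nearly level at 1125 and 1112 normalized counts per kb, followed by *F13a1* at 551, *Padi2* at 280 and *Cd200r3* at 167. Per kb, the 3 *Irf8*-OE samples ran from 1115 to 1138 for *Scin* and from 1092 to 1133 for *Serpina3g*, so these genes overlapped, whereas the sample values of all other neighbours in either order did not overlap.

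Ratios within a library do not depend on the size factor. The ratio of *Scin* to *Serpina3g*, in normalized counts, was 1.002 and 1.003 in the controls and 1.41, 1.43 and 1.48 in *Irf8*-OE samples 1, 2 and 3. That of *F13a1* to *Scin* was 1.45 and 1.49 in the controls and 1.07, 1.11 and 1.13 in *Irf8*-OE. Both ratios separated the groups, as did all other ratios among these genes except those given next. In contrast, *F13a1* to *Cd200r3* was 3.84 and 3.83 in the controls and 3.70, 3.60 and 3.85 in *Irf8*-OE, with the groups overlapping. That of *Padi2* to *Cd200r3* overlapped too, at 1.31 and 1.32 in the controls and 1.46, 1.28 and 1.47 in *Irf8*-OE. *F13a1* and *Cd200r3* stood in a similar ratio in every library, although their counts differed severalfold. A ratio shifts between the groups as far as the folds of its genes differ, and fold was part of how the genes were chosen.

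The coefficient of variation (CV) over the 2 controls was 0.189% for *F13a1*, 0.418% for *Cd200r3*, 1.15% for *Padi2*, 1.71% for *Scin* and 1.79% for *Serpina3g*. Over the 3 *Irf8*-OE samples it was 1.01% for *Scin*, 1.85% for *Serpina3g*, 3.19% for *Cd200r3*, 3.43% for *F13a1* and 5.06% for *Padi2*. The genes with the tightest controls were therefore not those with the tightest *Irf8*-OE samples. Counting error alone gives 0.686% to 3.17% for these values, depending on the number of reads. The spread divided by that expected from counting (chi-square per degree of freedom, where 1 means counting error alone) was 0.353 for *Scin*, 0.821 for *Serpina3g* and 1.07 for *Cd200r3* in *Irf8*-OE, and 3.75 for *Padi2* and 4.46 for *F13a1*. In the controls the order was nearly the reverse, at 0.0701 for *F13a1*, 0.0891 for *Cd200r3*, 0.888 for *Padi2*, 3.91 for *Scin* and 4.28 for *Serpina3g*. *Scin* and *Serpina3g* were thus near counting error in *Irf8*-OE only, and *F13a1* and *Padi2* in the controls only, among the 5 genes. With 2 or 3 samples these ratios are imprecise.

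For comparison, 33 listed lower genes had a control mean at or above that of *Cd200r3*, the 5 genes included. Their median fold was 2.80, ranging from 2.04 to 7.95, and their median CV over the *Irf8*-OE samples was 6.76%, ranging from 1.01% to 14.0%. By fold from the largest, *Serpina3g* was number 4, *F13a1* 5, *Cd200r3* 6, *Padi2* 7 and *Scin* 10. By CV over *Irf8*-OE from the smallest, *Scin* was number 1, *Serpina3g* 3, *Cd200r3* 7, *F13a1* 8 and *Padi2* 13. By CV over the controls the order was another, with *F13a1* at 5, *Cd200r3* at 8, *Padi2* at 16, *Scin* at 24 and *Serpina3g* at 26, the last 2 above the control median of 1.21%. The 3 genes with a larger fold than all of these were *Cpa3* at 7.95, *Il1rl1* at 6.54 and *Tpsb2* at 5.96. Fold and level were what chose the 5 genes, so these places are a description.

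**Figure D2:**
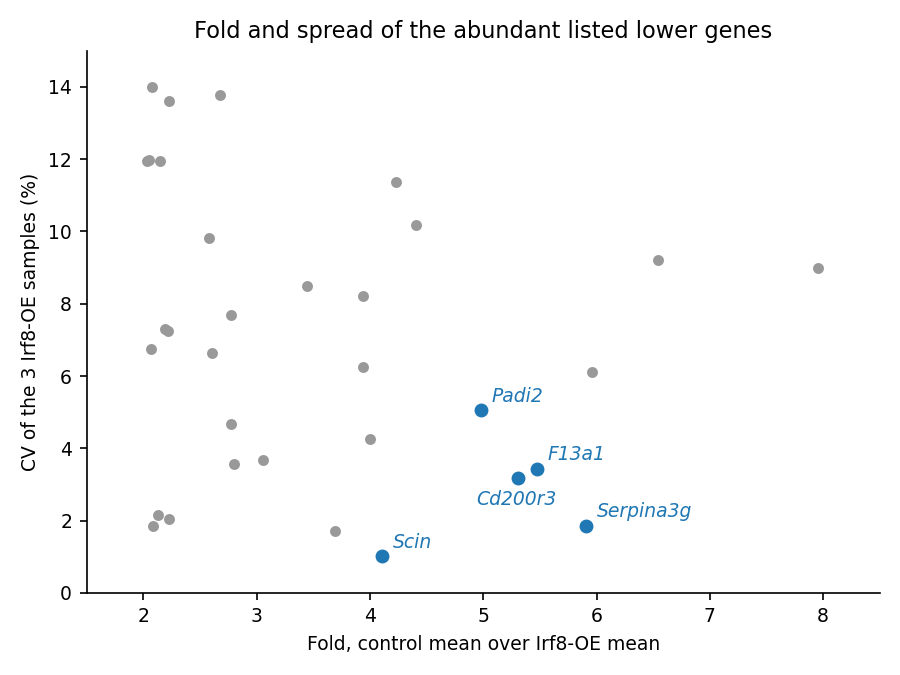
Fold (control mean over *Irf8*-OE mean) on the x axis against the CV in percent of the 3 *Irf8*-OE samples on the y axis for the 33 listed lower genes as abundant in controls as *Cd200r3* or more. The 5 genes (named) have folds from 4.11 to 5.91 and CVs from 1.01% to 5.06%, against a median CV of 6.76% over the 33.

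Among all 558 listed genes that were lower in *Irf8*-OE, whose median control mean was 196 normalized counts and whose median fold was 3.16, *F13a1* was number 8 by control level, *Scin* 10, *Serpina3g* 11, *Padi2* 24 and *Cd200r3* 33. By fold they stood further back, at 112, 180, 99, 131 and 120. The 5 genes ranked nearer the top by control level than by fold, but a high control level was part of how they were chosen.

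**Figure D3:**
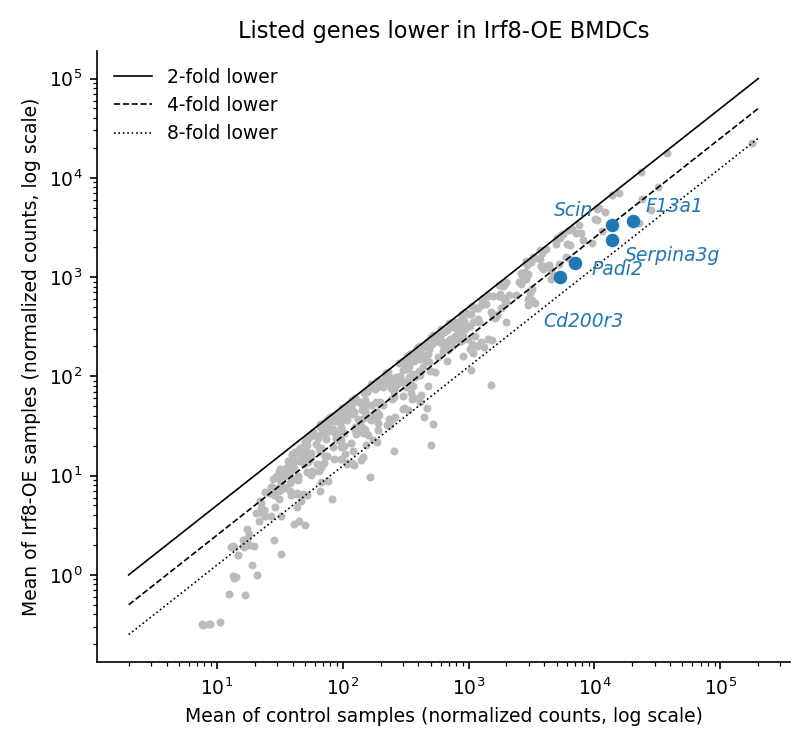
Mean normalized counts of the controls (x axis, log scale) against those of *Irf8*-OE (y axis, log scale) for 549 listed lower genes, with 9 at 0 in every *Irf8*-OE sample left out; lines mark folds of 2, 4 and 8. The 5 genes (named) lie at the abundant end between the lines for 4-fold and 8-fold lower.

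Of the gelsolin and villin family only *Scin* (1 of 8 genes) was listed, and of the transglutaminase family only *F13a1* (1 of 10). Of 27 genes of coagulation and fibrin, 4 were listed, and 2 were lower and 2 higher in *Irf8*-OE. Beside *F13a1*, *F2r*, which encodes a thrombin receptor, was lower, at 6232 and 6603 normalized counts in controls and 1332, 1541 and 1674 in *Irf8*-OE (4.23-fold). *Thbd*, the thrombin-binding thrombomodulin, and *F3*, the tissue factor that starts coagulation, were 2.18-fold and 4.02-fold higher in *Irf8*-OE. Both were far less abundant than *F13a1* and *F2r*. The mean of *Thbd* was 90.0 normalized counts in controls and 196 in *Irf8*-OE, and that of *F3* was 6.25 and 25.1. The listed coagulation genes thus did not share 1 direction.

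Of 5 peptidylarginine deiminase genes, *Padi2* and *Padi4* were listed, and both were lower. *Padi4*, known for citrullinating histones in neutrophils, lies 132 kb from *Padi2* and had 1063 and 1072 normalized counts in controls against 509.9, 513.5 and 512.2 in *Irf8*-OE. Its groups did not overlap, but its fold was 2.09 against 4.98 for *Padi2*. Per kb, *Padi4* stood at 221 in controls and 106 in *Irf8*-OE, under *Padi2* in both.

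*Serpina3g* belongs to a cluster of related serpin genes, of which 3 of 11 were listed. *Serpina3f*, 15.1 kb away, was at 304.6 and 310.0 normalized counts in controls and at 38.3, 43.9 and 62.3 in *Irf8*-OE, a 6.38-fold lower mean. *Serpina3b*, 96.7 kb away, went the other way, with 0 and 0.960 in controls, which is under the value of 3 reads, and 21.1, 28.0 and 39.2 in *Irf8*-OE. Among 19 other serpins 4 were listed. *Serpinb1a*, an inhibitor of neutrophil serine proteases, was 3.69-fold lower, while *Serpinh1*, *Serping1* and *Serpinf1* were 2.42-fold, 4.25-fold and 3.09-fold higher.

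Because the genes of this cluster are alike, reads could be shared between them. No window of 150 bases, the read length, of the exons of *Serpina3g* was found in another gene, whereas 340 of 2193 windows of 50 bases (15.5%) were. The gene holding the most of these was *Serpina3h*, with 195. The longest exact match of *Serpina3g* coding sequence with a transcript of *Serpina3f* and of *Serpina3n* shows how close the genes are. The first lies within 1 exon, at chr12:104240264-104240319 on the plus strand, and the second crosses an exon junction between bases 104240321 and 104241058 of the same chromosome (GRCm38).
*Serpina3g* and *Serpina3f*, 56 bases: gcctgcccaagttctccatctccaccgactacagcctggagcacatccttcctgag
*Serpina3g* and *Serpina3n*, 100 bases: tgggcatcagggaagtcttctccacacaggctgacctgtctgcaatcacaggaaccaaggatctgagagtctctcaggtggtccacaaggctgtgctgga
Shared 150-base windows made up 0% of the exons of *F13a1* and *Scin*, 0.0617% of those of *Padi2* and 0.260% of those of *Cd200r3*, so reads of that length could be placed on nearly all of each gene.

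Of 8 genes of CD200 and its receptors, *Cd200r3* and *Cd200r4* were listed, and both were lower. *Cd200r4*, a related activating-type receptor 104.5 kb away, was at 5456 normalized counts in each control and at 2317, 2797 and 2924 in *Irf8*-OE. Its level in the controls was close to that of *Cd200r3* (5303) by count and exceeded it per kb (2668 against 886), but its fold was 2.04 against 5.31. The 3 *Irf8*-OE samples of *Cd200r4* were also spread wider, at an SD of 320 against 31.9.

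**Figure D4:**
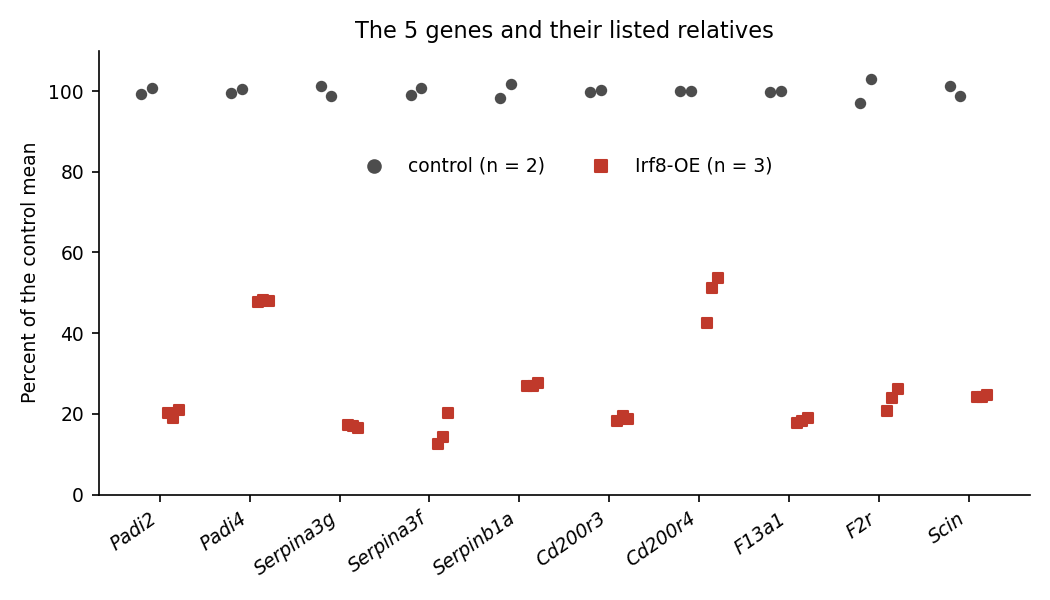
Normalized counts as percent of the gene's control mean for the 5 genes and listed relatives that were lower, with controls as circles (n = 2) and *Irf8*-OE samples as squares (n = 3). *Padi4* and *Cd200r4* (2.09-fold and 2.04-fold lower) lie well above *Padi2* and *Cd200r3* (4.98-fold and 5.31-fold lower), whereas *Serpina3f* reaches the level of *Serpina3g*.

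Start sites were examined in RefSeq sequence (GRCm38.p6) for motifs bound by transcription factors of myeloid cells. Both strands of the 250 bases upstream were searched. The letters were AGATAA or TGATAA for GATA factors and GAGGAA for ETS factors such as PU.1. For IRF factors, either GAAA or GGAA was required, followed by any 2 bases and then by GAAA. Upstream of *Cd200r3* (chr16:44943548-44943677, plus strand) there was 1 match each to AGATAA and, on the opposite strand, TGATAA, and 2 to GAGGAA. Upstream of *F13a1* (chr13:37050245-37050324, minus strand) there was 1 match to GAGGAA. A second start site of *F13a1*, at base 37049213, was also searched and held no match. The stretches are shown 5′ to 3′ up to the base before the start site, with the matches in capitals.
*Cd200r3*: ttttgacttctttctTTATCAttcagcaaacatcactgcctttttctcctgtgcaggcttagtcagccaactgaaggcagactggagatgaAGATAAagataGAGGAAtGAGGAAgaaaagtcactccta
*F13a1*: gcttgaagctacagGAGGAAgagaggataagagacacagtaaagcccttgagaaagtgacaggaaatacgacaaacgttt
*Scin*, *Padi2* and *Serpina3g* held none of these letters in this window, and none of the 5 held either IRF motif. Of 32851 promoters, 9.99% held AGATAA, 7.94% held TGATAA and 23.3% held GAGGAA, while the IRF motif that opens with GAAA was found in 2.98% and that with GGAA in 2.30%. A match describes only the sequence.

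Each of the 5 genes was set beside the other listed genes by the root mean square difference between their log2 profiles over the 5 samples, among 844 genes with a mean of at least 50 normalized counts. Each profile was centred on 1 value, the mean of its 2 group means, so the distance mostly restates how alike the folds are on which the 5 genes were chosen. For *F13a1* the nearest were *Neb* at 0.022, *Cd200r3* at 0.039 and *Hsd11b1* at 0.060. For *Cd200r3* they were *F13a1* at 0.039, *Hsd11b1* at 0.046 and *Fam3b* at 0.059. *F13a1* and *Cd200r3* had log2 fold changes of -2.45 and -2.41, so their nearness is no separate likeness.

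For *Scin* the nearest were *Rnase6* at 0.034, *Nov* at 0.038 and *Tph1*, which encodes the rate-limiting enzyme of serotonin synthesis outside the brain, at 0.041. For *Padi2* they were *Cma1*, a mast cell chymase, at 0.021, *Cst7* at 0.052 and *Klrb1f* at 0.060. For *Serpina3g* they were *Tpsb2*, a mast cell tryptase, at 0.044, *Atp8b5* at 0.050 and *A4galt* at 0.072. The median difference to all genes compared was 1.55 to 1.81. Among the 5 genes, *Scin* was 0.145 (*Padi2*) to 0.263 (*Serpina3g*) from the others, whereas the other 4 were 0.0391 to 0.136 from each other.

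Markers of other cell types moved in the same samples. Of 24 markers of mast cells and basophils, 16 were listed, of which 14 were lower and 2 higher in *Irf8*-OE. Summed over the listed markers, the controls held 269625 to 274614 normalized counts against 43246 to 47540 for *Irf8*-OE, and no listed marker was at 0 throughout a group. The most abundant were *Cpa3*, which encodes a mast cell carboxypeptidase, *Tpsb2* and *Il1rl1*, the IL-33 receptor, with folds of 7.95, 5.96 and 6.54 against 4.11 to 5.91 for the 5 genes. The 2 that were higher, named here after their values were seen, were the basophil protease genes *Prss34*, with a mean of 117.6 in controls and 1453 in *Irf8*-OE, and *Mcpt8*, with 177.8 and 1233. The part of these cells in the levels of the 5 genes was not tested.

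**Figure D5:**
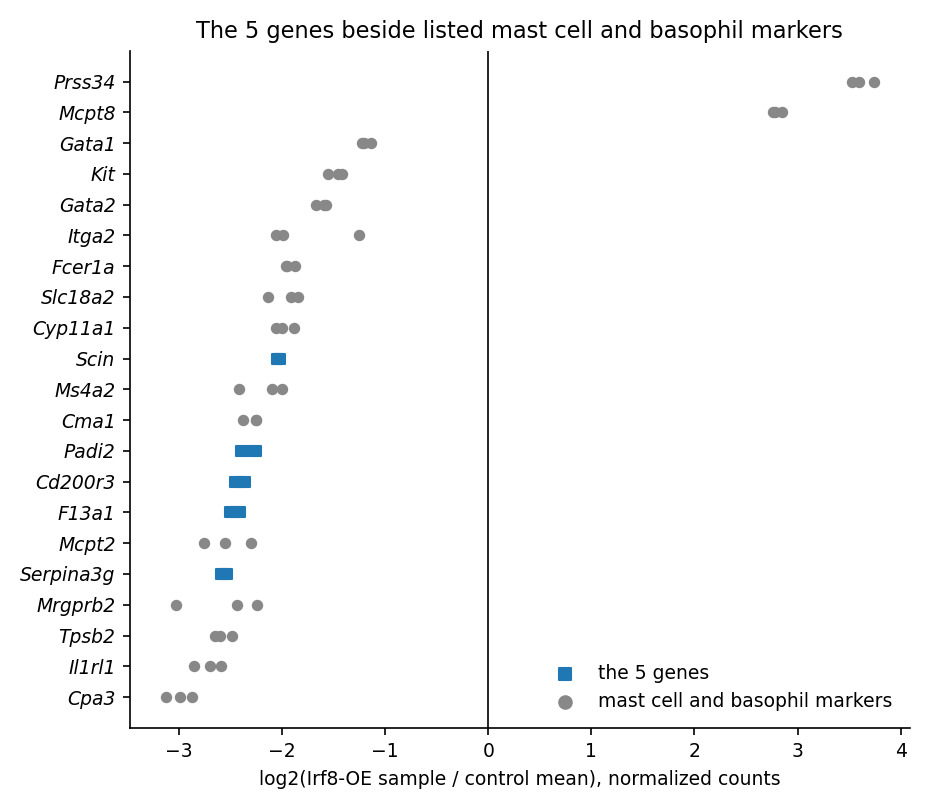
Log2 ratio of each *Irf8*-OE sample to the control mean (x axis, normalized counts) for the 5 genes (squares) and the 16 listed mast cell and basophil markers (circles), ordered by their mean. The 5 genes lie among the 14 lower markers, of which *Cpa3* (7.95-fold lower) is furthest from 0, while *Prss34* and *Mcpt8* lie on the other side of 0.

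*F13a1* is also known from macrophages and platelets. All 8 listed of 18 monocyte and macrophage markers were higher in *Irf8*-OE, with a summed level of 5559 to 5616 normalized counts in controls and 25916 to 31011 in *Irf8*-OE, opposite in direction to *F13a1*. Of 8 megakaryocyte and platelet markers 6 were listed, 4 higher and 2 lower, with sums of 6709 to 7051 and 5699 to 5917. The macrophage sums were thus higher in *Irf8*-OE. The platelet sums were lower although 4 of the 6 listed markers were higher. *Itga2b*, the most abundant of them, set that direction, with means of 5231 in controls and 2527 in *Irf8*-OE. The part of these cells in the level of *F13a1* was not tested.

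Of 9 eosinophil markers 6 were listed, 4 lower and 2 higher, summing to 1087 to 1204 in controls and 445 to 483 in *Irf8*-OE, with *Epx* at 0 in both controls. Of 14 neutrophil markers 6 were listed, 3 in each direction, with sums of 1865 to 1920 and 2250 to 2312. For cDC1, 3 of 4 listed markers (of 10) were higher, 1 of them *Irf8*. Its count does not tell reads of the transgene from those of the native gene, and it is part of the sum. The cDC1 sums were 12579 to 13232 in controls and 10258 to 10895 in *Irf8*-OE. Only *Cd24a* was lower, with means of 10057 in controls and 3855 in *Irf8*-OE, and it set the direction of that sum. For cDC2, 1 of 2 listed markers (of 7) was higher, with sums of 2193 to 2223 in controls and 4589 to 4752 in *Irf8*-OE. Both listed plasmacytoid markers (of 7), 7 B and plasma cell markers (of 10) and 5 stromal markers (of 9) were higher. *Siglech*, a plasmacytoid marker, was at 0 in both controls, and sums of B cell markers were 262 to 316 against 3545 to 4197, those of stromal markers 1550 against 7695 to 8719. The part of these cells in the results was not tested.

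In the annotation of GRCm38 (GENCODE vM21), the start, end and exon length of all 5 genes were the same as in the deposited table. The genes have 18 (*F13a1*), 16 (*Scin*), 17 (*Padi2*), 6 (*Serpina3g*) and 9 (*Cd200r3*) exons after overlapping exons are merged. Of the protein-coding genes within 500 kb, 1 of 3 was listed beside *F13a1* (*Ly86*, 295 kb away, with means of 29.2 in controls and 61.8 in *Irf8*-OE), 0 of 5 beside *Scin*, 1 of 23 beside *Padi2*, 2 of 20 beside *Serpina3g* and 1 of 13 beside *Cd200r3*. Antisense genes overlap *F13a1* and *Padi2* in 74 and 149 bases of exon. The strand setting of the counting is not given in the sources used here, so reads of such a partner cannot be told apart from those of the gene itself over these bases.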

How the data were processed

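Poly-A RNA of 5 BMDC samples was sequenced on an Illumina NovaSeq, paired 150-base reads. The submitters' processing notes name fastp, HISAT2 2.0.5, featureCounts 1.5.0-p3, DESeq2 1.20.0, edgeR 3.22.5 and mm10, without roles. The authors deposited 1 table of the genes they called as differing, whose values are a read signal: counts divided by a size factor per sample. The authors' group means, log2 fold changes, p-values and adjusted p-values in that table were not used. Every value was a whole multiple of the sample's step, within a tolerance of 0.001, so reads were recovered.

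Log2(normalized counts + 1) was fitted with limma 3.58.1 in R 4.3.3, with a trend, over all 1355 genes. Standard errors are limma's, and no p is given for the 5 genes. Alternatives were quantile normalization, DESeq2 1.42.0 and edgeR 4.0.16 (quasi-likelihood, TMM) on recovered reads, a filter on low values, other pseudocounts, a block on replicate numbers and the omission of each sample in turn. DESeq2 and edgeR without the third *Irf8*-OE sample were added after seeing the data. The fits were tested on simulated data.

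The members and lists were chosen with earlier results of these data known. The text names the 5 genes, *Irf8*, the listed genes of their families and pathways, up to 3 markers of each cell type by level, *Xist* and Y-linked genes, and for each of the 5 the 3 nearest profiles. Genes that the text gives as a defining marker at 0, a neighbour or an exception were named after their values were seen.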

Additional observations from a re-analysis of the deposited data

How the results depend on the processing

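All 5 genes were called lower under each of the 15 alternatives, and the log2 fold change of each kept its direction and its side of the threshold. Of all 1355 listed genes (1290 with the filter on low values), 478 to 558 were called lower under the alternatives. The 5 genes were chosen on this contrast, so their count is a description. Over all alternatives the log2 fold change ran from -2.78 to -1.66 for *F13a1*, -2.35 to -1.46 for *Scin*, -2.65 to -1.95 for *Padi2*, -2.87 to -1.99 for *Serpina3g* and -2.72 to -2.14 for *Cd200r3*. The end nearest 0 was always quantile normalization, and the other end edgeR with TMM, for the first 3 genes without the third *Irf8*-OE sample. Leaving out 1 sample moved *F13a1* only between -2.48 and -2.43 and *Padi2*, the most variable in *Irf8*-OE, between -2.35 and -2.28.

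Over the listed genes the median log2 fold change was 1.14 and shifted by -0.36 under quantile normalization, -0.31 under edgeR's TMM and -0.15 with a pseudocount of 10. Relative to that median, *F13a1* stood at -3.60, and at -2.45 after quantile normalization, and *Cd200r3* at -3.55 and -2.93. Listed genes called numbered 1343, and 1031 to 1354 over the alternatives. The split was 787 higher and 556 lower, and 509 and 522 under quantile normalization.

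Titles and descriptions number the samples differently, and nothing says that a number pairs them. The titles number the controls 1 and 2. The descriptions number them 2 and 3, with no control numbered 1, and the *Irf8*-OE samples 1, 2 and 3. The deviations of same-numbered samples from their group means correlated at -0.00895 and 0.042 by titles and at -0.042 and -0.041 by descriptions. With the replicate number as a block, the log2 fold change of *F13a1* was -2.48 by titles and -2.43 by descriptions, the 5 genes were still called, and 1319 and 1271 listed genes were called.

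With 2 controls and 3 *Irf8*-OE samples the SDs are imprecise, and the table, holding only genes the authors called, gives no unchanged genes for scaling.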
